A study of Homo sapiens with 6 samples.

Results

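The regions described here are 2020 peaks of dimethylated lysine 79 of histone H3 (H3K79me2) that lay outside protein-coding genes in HEK293T cells. They were chosen by peak position and width from the H3K79me2 peak list. A peak was kept if it was under 10 kb wide, lay on chromosomes 1 to 22 or X, and overlapped no RefSeq protein-coding gene extended by 1 kb on both sides. The 2020 regions were 3.71% of the 54476 H3K79me2 peaks on these chromosomes and 3.75% of the 53839 peaks under 10 kb. Of them, 1237 (61.2%, exact 95% interval 59.1 to 63.4) lay inside an annotated non-coding gene and 783 (38.8%, 36.6 to 40.9) lay outside all annotated genes. In all they covered 1.36 Mb. Because the H3K79me2 list itself chose the regions, its own widths, fold enrichments and q-values are given as description only.

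HEK293T is an established human embryonic kidney line in which the SV40 large T antigen is expressed. Its cells were cultured without any treatment named in the labels, fixed with formaldehyde and sonicated. The series holds 1 ChIP-seq library for each of H2AZ with a CST antibody, H2AZ with an Abcam antibody, H3.3 (EMD Millipore), H4K16ac (CST) and H3K79me2 (CST), and 1 input library. With 1 library per antibody there is no replicate check of any difference, and intervals cover counting error only. They treat every peak as independent, although 53 non-coding genes held at least 5 regions each, so they are likely too narrow. The 5 peak lists held 300470 peaks on chromosomes 1 to 22 and X. No read depth of a library stands in the sources used here.

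H3K79me2 is written by DOT1L, which travels with elongating RNA polymerase II, and it is known as a mark of the 5′ part of transcribed genes. H2A.Z (H2AZ in the labels) is a histone H2A variant placed mainly in the nucleosomes that flank active start sites, H3.3 is the replacement form of histone H3 deposited outside of replication, and H4K16ac is the acetylation that KAT8 (MOF) writes on histone H4. Long non-coding RNA genes are transcribed by the same polymerase, and many serve as hosts from whose transcripts microRNAs or small nucleolar RNAs are cut.

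Several strong regions spanned the whole start window of a host gene or an antisense RNA, and 5 such windows are shown because the results below turn on what lies at these starts. Each runs from 250 bases before to 50 bases after the RefSeq start (GRCh38.p14), 5′ to 3′ on the gene's strand. Capitals mark matches, on either strand, to GGGCGG (the GC box), CCAAT (the CCAAT box), TATAAA (the TATA box) or CACGTG (the E box). A match is a description of the letters and not a bound site.
MIR17HG, chr13:91347437-91347736, plus strand: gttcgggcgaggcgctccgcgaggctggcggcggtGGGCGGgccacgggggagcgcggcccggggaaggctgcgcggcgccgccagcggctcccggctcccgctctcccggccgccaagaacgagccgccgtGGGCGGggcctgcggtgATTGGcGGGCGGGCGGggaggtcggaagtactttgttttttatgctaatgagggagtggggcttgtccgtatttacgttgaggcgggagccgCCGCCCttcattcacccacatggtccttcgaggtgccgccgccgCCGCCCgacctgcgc
SNHG5, chr6:85678684-85678983, minus strand: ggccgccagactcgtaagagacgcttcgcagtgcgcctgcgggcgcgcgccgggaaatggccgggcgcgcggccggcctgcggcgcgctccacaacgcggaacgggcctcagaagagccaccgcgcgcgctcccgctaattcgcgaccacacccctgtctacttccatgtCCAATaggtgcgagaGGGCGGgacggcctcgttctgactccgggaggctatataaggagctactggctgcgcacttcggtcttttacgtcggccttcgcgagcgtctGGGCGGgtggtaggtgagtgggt
MIR34AHG, chr1:9182289-9182588, minus strand: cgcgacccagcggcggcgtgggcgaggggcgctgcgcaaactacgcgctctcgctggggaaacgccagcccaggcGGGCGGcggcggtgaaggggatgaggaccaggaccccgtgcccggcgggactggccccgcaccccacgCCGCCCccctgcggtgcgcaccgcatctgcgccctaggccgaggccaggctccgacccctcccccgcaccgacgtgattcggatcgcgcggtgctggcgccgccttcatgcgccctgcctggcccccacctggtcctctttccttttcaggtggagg
DLEU2, chr13:50125492-50125791, minus strand: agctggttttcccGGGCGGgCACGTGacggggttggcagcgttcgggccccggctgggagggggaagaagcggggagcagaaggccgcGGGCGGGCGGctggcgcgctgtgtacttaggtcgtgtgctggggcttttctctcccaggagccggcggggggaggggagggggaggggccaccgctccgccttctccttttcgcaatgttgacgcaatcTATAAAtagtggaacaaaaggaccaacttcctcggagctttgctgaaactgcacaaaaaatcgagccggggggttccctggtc
HOXD-AS2, chr2:176137049-176137348, minus strand: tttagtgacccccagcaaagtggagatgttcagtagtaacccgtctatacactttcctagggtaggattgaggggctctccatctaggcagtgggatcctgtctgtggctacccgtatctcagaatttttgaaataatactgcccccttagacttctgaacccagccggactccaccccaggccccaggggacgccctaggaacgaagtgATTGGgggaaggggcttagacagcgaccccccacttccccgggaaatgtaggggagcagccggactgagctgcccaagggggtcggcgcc
The MIR17HG window held 6 GC boxes and 42 CpG dinucleotides, and its GC content was 73%. The DLEU2 window held 3 GC boxes, 1 TATA box, 1 E box and 24 CpG dinucleotides. The HOXD-AS2 window held no GC box and 10 CpG dinucleotides, the fewest of these 5.

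Among the regions, 13 overlapped 19 of the 1558 microRNA genes in the RefSeq sequence table. A single region of 7124 bp, chr13:91347161-91354284, spanned all 6 microRNA genes of MIR17HG, the miR-17-92 host, with a fold enrichment of 58.4. The mature microRNAs below are 1 arm of each gene of that cluster, the miR-193 pair, whose seed recurs at separately marked loci, and let-7i. Capitals mark the seed, bases 2 to 8, and the sequences are RefSeq's.
hsa-miR-17-5p: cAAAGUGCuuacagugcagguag
hsa-miR-20a-5p: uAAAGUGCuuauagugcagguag
hsa-miR-18a-5p: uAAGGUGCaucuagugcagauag
hsa-miR-19a-3p: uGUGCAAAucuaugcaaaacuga
hsa-miR-19b-3p: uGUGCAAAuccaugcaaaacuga
hsa-miR-92a-3p: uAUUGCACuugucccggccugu
hsa-miR-193a-3p: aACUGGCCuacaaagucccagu
hsa-miR-193b-3p: aACUGGCCcucaaagucccgcu
hsa-let-7i-5p: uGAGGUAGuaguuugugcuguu
The miR-17-5p and miR-20a-5p seeds were identical, as were those of miR-19a-3p and miR-19b-3p, and both pairs came from the MIR17HG region. The seeds of miR-18a-5p, miR-92a-3p and let-7i-5p were each found once among the microRNAs of the regions. The miR-193a-3p and miR-193b-3p seeds were also identical, and these genes lay in different regions on chromosomes 17 and 16. The region over MIR193B had a −log10 q-value of 374 and was overlapped by all 4 other lists. The region over MIR193A had a −log10 q-value of 37.7 and was overlapped by H2AZ CST, H3.3 and H4K16ac but not by H2AZ Abcam. The region over MIRLET7I, which encodes let-7i, had a −log10 q-value of 222 and all 4 other lists.

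Compared with the other H3K79me2 peaks, the 2020 regions were slightly narrower. Their median width was 427 bp, against 494 bp for the 51819 peaks under 10 kb that overlapped a protein-coding gene or its 1 kb flank. The median −log10 q-value was 9.48, with a maximum of 792, and in the other peaks the median was 9.56 with a maximum of 958. The regions inside non-coding genes had a median width of 443 bp and those outside all genes 393 bp. A −log10 q-value of at least 50 was reached by 264 regions (13.1%) and by 17% of the other peaks.

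Histone H2AZ, H3.3 and H4K16ac peaks overlapped a sizeable minority of the regions. Overlap means at least 1 shared base. Among all 53839 H3K79me2 peaks under 10 kb, 22.9% were overlapped by the H2AZ CST list, 23.3% by H2AZ Abcam, 32.9% by H3.3 and 26.3% by H4K16ac. Of the 2020 regions, 584 (28.9%, 26.9 to 30.9) were overlapped by H2AZ CST and 640 (31.7%, 29.7 to 33.8) by H2AZ Abcam. H3.3 overlapped 816 (40.4%, 38.2 to 42.6) and H4K16ac 569 (28.2%, 26.2 to 30.2). In the peaks at protein-coding genes the corresponding shares were 22.6%, 23%, 32.7% and 26.2%. The intervals of the first 3 shares lay above those of the protein-coding peaks, and for H4K16ac the lower bound of 26.2% lay inside the protein-coding interval of 25.8 to 26.6%.

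Over all distances from protein-coding genes, the share overlapped by each list was higher in the regions outside all genes than in those inside non-coding genes. H3.3 overlapped 387 of 783 regions outside all genes (49.4%, 45.9 to 53) and 429 of 1237 inside a non-coding gene (34.7%, 32 to 37.4). H4K16ac overlapped 35.2% (31.9 to 38.7) and 23.7% (21.3 to 26.2). H2AZ CST overlapped 32.7% (29.4 to 36.1) and 26.5% (24.1 to 29.1), and H2AZ Abcam 34.1% (30.8 to 37.5) and 30.2% (27.6 to 32.8). The counting intervals were apart for H3.3, H4K16ac and H2AZ CST, and they overlapped for H2AZ Abcam. The order did not hold at every position. Under 10 kb downstream of a protein-coding gene, H2AZ Abcam overlapped 20.2% (14.9 to 26.4) of the regions outside all genes and 37.2% (28.6 to 46.4) of those inside non-coding genes, and H2AZ CST 21.7% and 34.7%. From 5 to 10 kb away, H2AZ CST was at 32.8% outside and 35.5% inside, H2AZ Abcam at 33.6% and 39.4%, and H4K16ac at 33.6% and 34.8%.

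**Figure D1:**
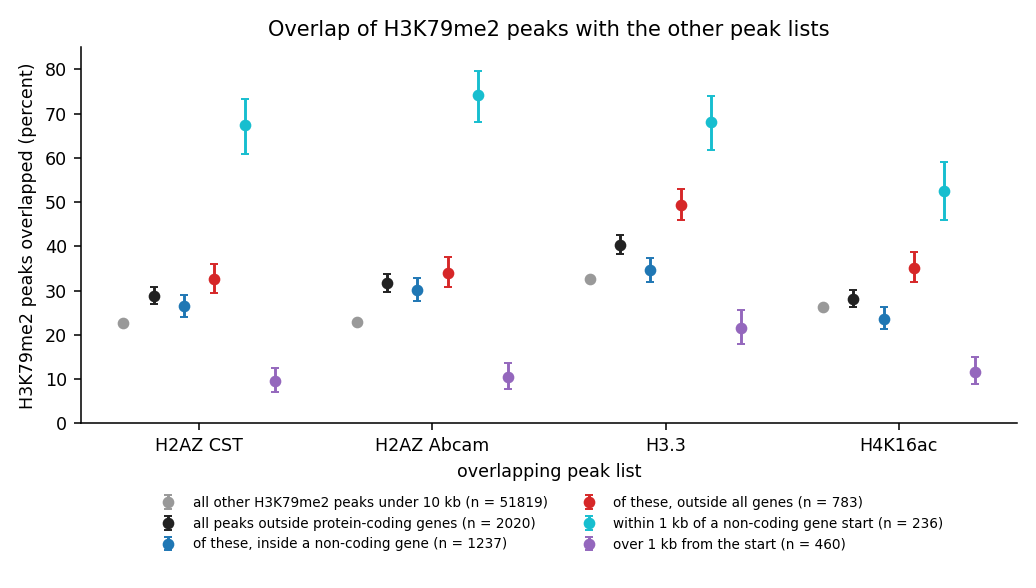
Share of H3K79me2 peaks overlapped by each of the 4 other peak lists (y axis, percent), for the other peaks under 10 kb, all 2020 regions, and 4 subsets of the regions. Points are shares and bars are exact 95% intervals of the count. Regions within 1 kb of a non-coding gene start lie highest for every list (52.5 to 74.2%), and regions over 1 kb from it lie lowest (9.57 to 21.5%).

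The shares were mostly higher in wider classes of peaks. Under 300 bp, H2AZ CST overlapped 22.8% of the 232 regions outside all genes, 14.9% of the 315 inside non-coding genes and 6.63% of 11518 other peaks. From 2 kb up, the order was not the same: 57.9% of 19, 60.6% of 71 and 68.3% of 6439. When the other peaks were weighted to the width classes of the 2020 regions, their H2AZ shares were 17.3% (CST) and 17.6% (Abcam), H3.3 was at 28.1% and H4K16ac at 22.6%. Each was below the share in the regions.

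**Figure D2:**
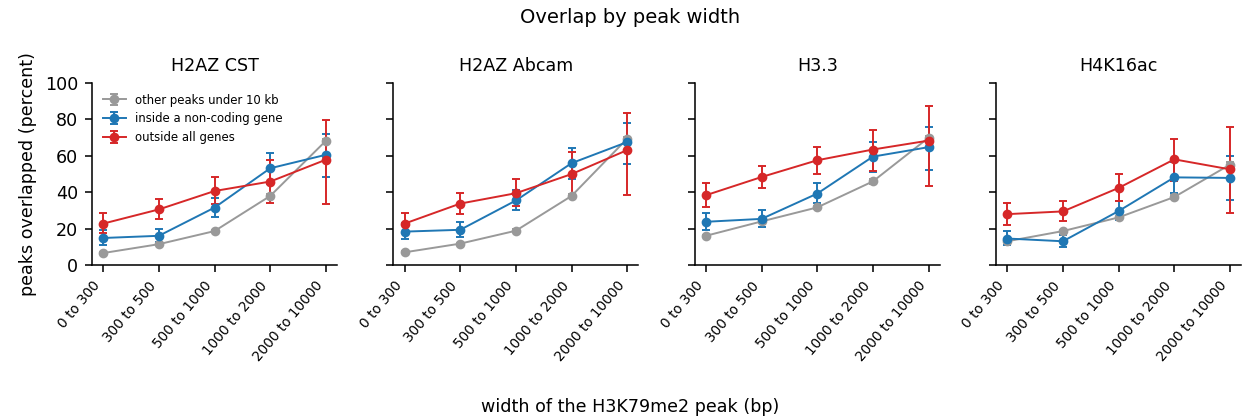
Share of H3K79me2 peaks overlapped (y axis, percent) by width of the H3K79me2 peak (x axis, bp), with 1 panel per overlapping list. Points are shares and bars are exact 95% intervals. For H2AZ CST under 300 bp the regions outside all genes are at 22.8% and the other peaks at 6.63%, and in the widest class the 3 sets lie between 57.9 and 68.3%.

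The shares were also higher in stronger peaks. In the lowest quartile of −log10 q over all H3K79me2 peaks under 10 kb, H2AZ CST overlapped 10.2% of 499 regions and 3.19% of 12982 other peaks. H3.3 overlapped 18.2% and 11.1% there. In the top quartile the order turned: H2AZ CST overlapped 62.2% (57.7 to 66.6) of 474 regions and 68.3% (67.5 to 69.1) of 12986 other peaks. H2AZ Abcam in the top quartile overlapped 67.7% and 69.2%, with overlapping intervals.

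The combinations of lists at each region were counted next. All 4 were present at 372 regions (18.4%, 16.7 to 20.2), and none at 1074 (53.2%, 51 to 55.4). In the other peaks under 10 kb these shares were 13.9% and 62%. H2AZ was found with both antibodies at 561 regions and with at least 1 at 663. H3.3 was present at 88% of the 584 regions with H2AZ CST and at 21% of the 1436 without it, and H4K16ac at 69.5% and 11.4%. The conditional shares were 86.3% and 17% for H3.3, and 66.6% and 14.4% for H4K16ac, in the other peaks.

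H3.3 without any of the other lists marked 142 regions (7.03%, 5.95 to 8.23), against 3.54% (3.39 to 3.71) of the other peaks. H3.3 together with H4K16ac but without H2AZ marked 119 regions (5.89%, 4.9 to 7.01), against 8.91% (8.67 to 9.16). H3.3 alone thus had a larger share of the regions than of the other peaks, both inside non-coding genes (5.58%, 4.37 to 7.01) and outside all genes (9.32%, 7.38 to 11.6). The pair of H3.3 and H4K16ac had a smaller share inside non-coding genes (4.37%, 3.3 to 5.66). Outside all genes the pair was at 8.3% (6.47 to 10.5), an interval that contains the 8.91% of the other peaks. H4K16ac alone was rare in both, at 1.09% and 1.81%. H2AZ with neither H3.3 nor H4K16ac was at 3.96% and 2.7%.

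Of the 39124 non-coding genes on chromosomes 1 to 22 and X, 677 overlapped a region. They were 460 genes of the class lncRNA, 5 of the class antisense RNA, 139 transcribed pseudogenes, 31 other pseudogenes, 23 microRNA genes, 13 small nucleolar RNA genes and 6 others. By region, 898 lay in a long non-coding RNA gene (lncRNA or antisense class), 353 in a transcribed pseudogene and 40 in both. The 6 others included IGL, the immunoglobulin lambda locus, which the table lists as neither coding nor pseudogene and which held 6 regions. A gene held 1 region in 425 cases and at least 5 in 53. By symbol, 87 of the 2059 annotated long RNA genes ending in AS with or without a number (antisense to a neighbour) overlapped a region. For those ending in DT (divergent transcript of a neighbour) it was 44 of 591, and for those beginning with LINC 98 of 2306. Long RNA genes beginning with LOC were more numerous, at 151 of 12316, and those with other kinds of symbol were at 84 of 817.

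Regions near a non-coding start differed from those deeper in the gene. Starts were known for 11383 non-coding genes, all of the lncRNA class. The 236 regions within 1 kb of a start were overlapped by both H2AZ lists in most cases, at 67.4% (61 to 73.3) with the CST and 74.2% (68.1 to 79.6) with the Abcam antibody. H3.3 overlapped 68.2% (61.9 to 74.1) and H4K16ac 52.5% (46 to 59.1). The 460 regions inside such genes but over 1 kb from a start were overlapped at 9.57% (7.04 to 12.6), 10.4% (7.79 to 13.6), 21.5% (17.9 to 25.6) and 11.7% (8.94 to 15). No pair of intervals overlapped, but regions of the same gene are not independent and the intervals do not allow for that.

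The comparison was also made gene by gene. Of 5910 lncRNA genes with a known start and no protein-coding gene within 1 kb, 195 (3.3%, 2.86 to 3.79) held a region. H2AZ CST lay within 1 kb of the start in 78.5% (72 to 84) of those 195 genes and in 13.2% (12.3 to 14.1) of the 5715 others. For H3.3 the shares were 77.9% and 8.84%, and for H4K16ac 63.1% and 9.85%. Read the other way, 30.2% of the 351 genes with all 4 lists at the start held a region, against 0.493% of the 4666 genes with none of them. Thus 752 lncRNA genes had H2AZ CST at the start and no H3K79me2 region.

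Along the 90 of these genes that were at least 10 kb long, H3K79me2 coverage fell from the start onward. The genes were chosen for holding a region, so the H3K79me2 profile is a description. H3K79me2 peaks covered on average 26.6% of the first 10% of the gene, 10.9% of the next and 1.29% of the last. H2AZ CST covered 12.4%, 1.32% and 0.418% of the same segments. In 500 bp windows, H3K79me2 covered 45% of the first window after the start and still 18.4% of the window from 2000 to 2500 bp, where H2AZ CST covered 0.173%. Upstream, in the window from −500 to 0 bp, H2AZ CST covered 32.9% and H3K79me2 27.6%.

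**Figure D3:**
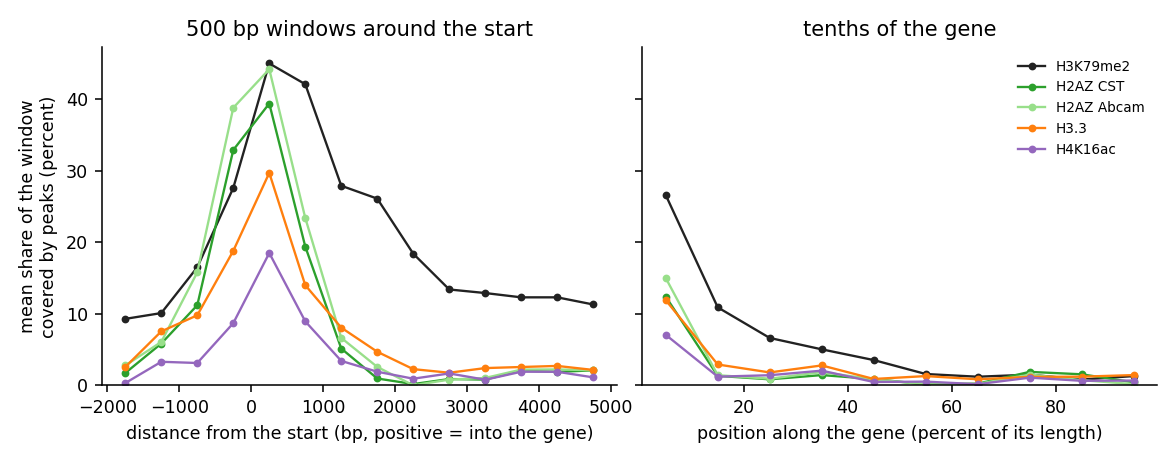
Mean share of a window covered by peaks (y axis, percent) over 90 lncRNA genes of at least 10 kb that held a region, in 500 bp windows around the start (left, x axis in bp) and in 10 equal segments of the gene (right, x axis in percent of gene length). H2AZ, H3.3 and H4K16ac are highest in the first window after the start, where H2AZ CST covers 39.4%, and H3K79me2 extends further into the gene.

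Base composition of the start windows differed in the same direction. The 173 lncRNA start windows that a region overlapped held a median of 25 CpG dinucleotides, and a GC box match was present in 69.9%. The 7022 lncRNA windows over 1 kb from protein-coding genes and with no H3K79me2 peak held a median of 3, with a GC box in 13.6%. Of those windows, the 627 with H2AZ CST held a median of 13 CpG dinucleotides and a GC box in 45.5%. A TATA box match was found in 4.05% of the windows with a region and in 19% of those without H3K79me2. Within the latter it was found in 5.58% of the 627 with H2AZ CST and in 20.4% of the 6395 without it. The lower TATA share was thus also seen at H2AZ starts that had no H3K79me2 peak. Over all 34959 windows, 45% held a GC box and 11.5% a TATA box, and the 10031 protein-coding windows with an H3K79me2 peak held a median of 28 CpG dinucleotides.

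MicroRNA host genes held regions in 23 of the 78 genes on this list that have bases outside protein-coding genes (29.5%). Over all 27083 such non-coding genes the share was 2.5%. The 39124 annotated non-coding genes include 16664 pseudogenes and 3853 small RNA genes, so 2.5% is not a share over long RNA genes alone. Among the 817 annotated long RNA genes whose symbols are not of the AS, DT, LINC, LOC, OT or IT kinds, 84 held a region. The same limit on the 2.5% holds for each of the lists below. In genes that held a region, the regions covered a median of 9.05% of the host genes and 6.7% of all the genes. The list and the regions were picked with results of these data known, so the counts describe the list.

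MIR17HG (chr13:91347687-91354577, plus strand), the miR-17-92 host, had 2 regions that covered 97.2% of its 6891 bp, and the stronger had a −log10 q-value of 383. H2AZ peaks of both antibodies ended at −225 and −212 bp from the start, and H4K16ac and 1 of 2 H3.3 peaks lay between 553 and 753 bp into the gene. MIR34AHG (chr1:9148011-9182338, minus strand), host of the p53-induced miR-34a, had 19 regions over 29.2% of its length, the strongest at 195. All 4 other lists had a peak at its start, and beyond it H3.3 alone had a further peak, near the 3′ end. MIR193BHG had 9 regions over 20.7% of its length (strongest 374), and MIRLET7IHG 3 over 16% (strongest 222), and each had all 4 lists at the start. MIR222HG had 7 weak regions (strongest 12.5) over 14.8% of its length and no peak of any other list.

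DLEU2 and DLEU1 are overlapping long RNA genes on opposite strands at a locus on chromosome 13 that is often deleted in leukaemia. DLEU2, which hosts miR-15a and miR-16-1, held 29 regions over 13% of its 142993 bp, and DLEU1 held 22 over 3.92% of 446475 bp. The strongest region in both was the same peak, with a −log10 q-value of 184. Another H3K79me2 peak of 13990 bp in DLEU2 was over the width limit and was not counted. All 4 other lists had a peak within 1 kb of a listed start of each gene.

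Small nucleolar RNA host genes held regions in 11 of the 25 genes on their list with bases outside protein-coding genes. That was 44%, with a median coverage of 22.7%, against 2.5% over all such non-coding genes, pseudogenes and small RNA genes included. These hosts carry the RNAs that guide modification of ribosomal RNA in their introns. SNHG5 was covered over all of its 1727 bp by 1 region of 242, SNHG15 over 74.2% by 1 region of 298, and SNHG16 over 71.2% by 1 region of 226 (−log10 q-values). SNHG11 held the strongest region on the list, at 486, over 26.1% of its length. DANCR held 1 region of 254 over 20.6%, with all 4 other lists at its start. Within the SNHG5 gene body there was no peak of any other list, and all 4 had a peak within 1 kb of its start.

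Among the RNAs of X inactivation and imprinting, 5 of 9 genes with bases outside protein-coding genes held a region. That was 55.6%, against 2.5% over all such non-coding genes. JPX (chrX:73944324-74070384, plus strand), an RNA that activates XIST, held the most bases of any non-coding gene: 22 regions covered 35142 bp, or 27.9% of the gene. With a width limit of 2 kb they covered 9496 bp, and PVT1, at 27578 bp, covered more. The regions ran from the start to 42580 bp into it. H2AZ of both antibodies had a peak at the start, H2AZ CST had another near the far end, and neither H3.3 nor H4K16ac had any peak in JPX. XIST itself held 5 regions over 19.8% of its length and a further peak of 18289 bp that was over the width limit. All H3K79me2 peaks together covered 76.8% of XIST, and none of the 4 other lists had a peak in it. FTX, another positive regulator of XIST, held 7 regions (strongest 114), H2AZ with both antibodies and H3.3 at its start, and no H4K16ac peak. TSIX, the antisense partner of XIST, overlaps it, and ChIP does not assign a peak to a strand.

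The nuclear RNAs NEAT1, which builds paraspeckles, and MALAT1, which sits in nuclear speckles, are neighbours on chromosome 11. NEAT1 held 6 regions over 39.7% of its 22743 bp with a maximum −log10 q-value of 579, beside 6 H3.3 peaks and 3 H4K16ac peaks. No H2AZ CST peak overlapped the gene. A strong H2AZ Abcam peak, with a −log10 q-value of 102, lay at the edge of the gene and covered only 0.0791% of it. MALAT1 held 2 regions over 95.9% of its 8779 bp (maximum 90.6), 5 H3.3 peaks over 16.3%, and 1 peak each of H2AZ CST and H4K16ac, which overlapped each other. TERC, the RNA template of telomerase, lay wholly inside 1 region of 150 and wholly inside a peak of each other list. No other gene of the 16 on this list with bases outside protein-coding genes held a region. The share was 18.8%, against 2.5% over all such non-coding genes.

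**Figure D4:**
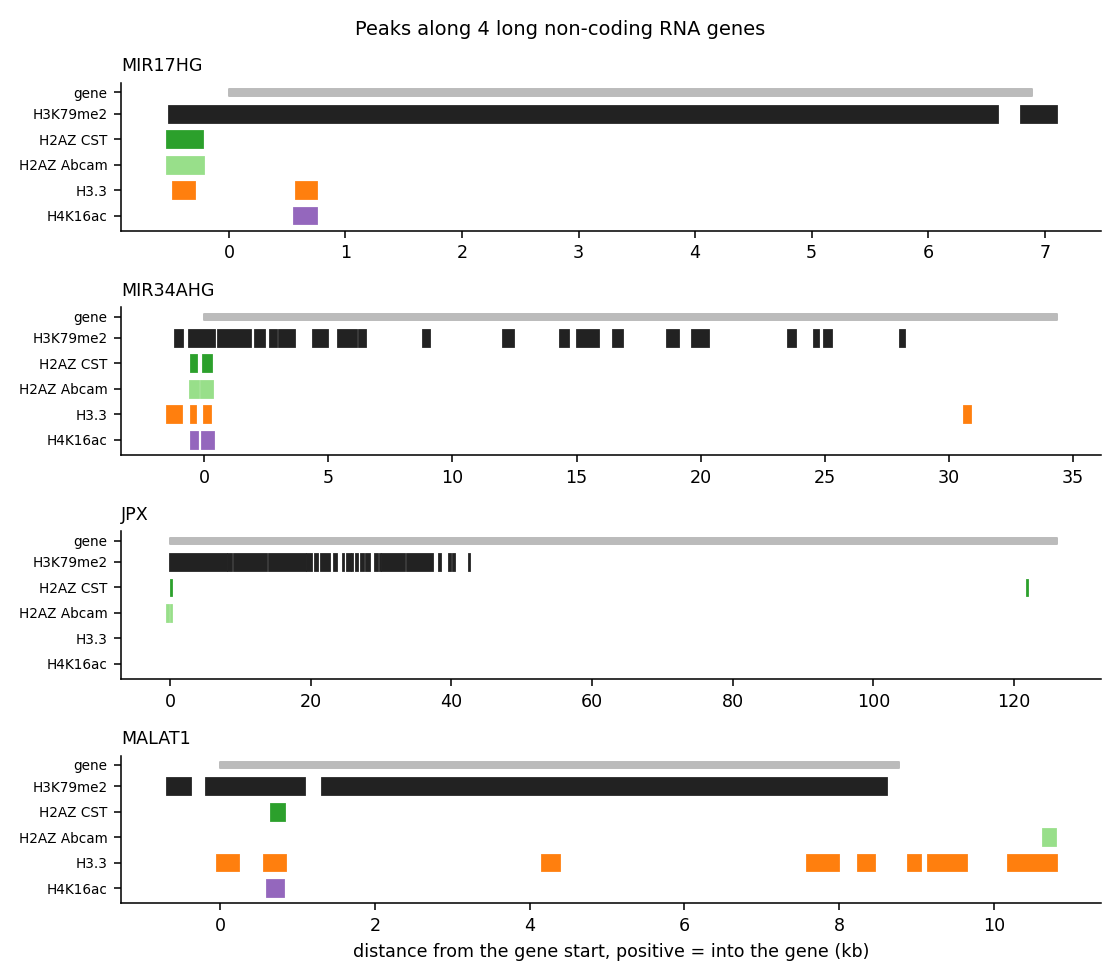
Peaks of the 5 lists along 4 lncRNA genes (x axis, distance from the gene start in kb, positive into the gene). Bars are peaks, with 1 row per list, and the grey bar is the gene. H3K79me2 covers 97.2% of MIR17HG and 95.9% of MALAT1 and ends 42580 bp into JPX. H2AZ lies at or near the starts of MIR17HG, MIR34AHG and JPX, with a further H2AZ CST peak near the far end of JPX. MALAT1 has an H2AZ CST peak from 642 to 839 bp into the gene, and an H2AZ Abcam peak lies beyond it.

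Of the antisense and other RNAs of the HOX clusters, 3 of 13 genes with bases outside protein-coding genes held a region. That was 23.1%, against 2.5% over all such non-coding genes. Counting every H3K79me2 peak, also those that the rule left out, 14 of the 17 genes on the list had a peak. Over all 39124 non-coding genes, 3574 had one. HOXD-AS2 held 1 region of 398 over 52.6% of its 2258 bp, with all 4 other lists at its start. HOTAIR held 5 regions over 37.9% of its length (strongest 207) and overlapped the flank of a protein-coding gene elsewhere, so that all H3K79me2 peaks together covered 63.3% of it. HOTTIP held 1 region of 352 bp. On the list of growth-related long RNAs 9 of 18 genes held a region (50%, against the same 2.5%).

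PVT1, the long RNA gene next to MYC, held the largest number of regions. There were 58 of them over 9.74% of its 306733 bp, with a maximum −log10 q-value of 138. The gene also held 4 H3.3 peaks, 3 H4K16ac peaks and 1 peak with each H2AZ antibody. OIP5-AS1 held a region of 576, with H2AZ of both antibodies at the start and no H3.3 or H4K16ac peak in the gene. NORAD, an RNA that binds PUMILIO proteins, held 5 regions over 48.8% of its length (strongest 215). LINC01619 held 11 regions over 6.71% of its length and no peak of any other list, and part of it lies within 1 kb of a protein-coding gene, where a stronger H3K79me2 peak of 590 was not counted. On chromosome 7 a region of 5382 bp and 678 covered all of LINC02983 and LINC03073, and all 4 other lists overlapped it.

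Transcribed pseudogenes held the strongest region of all. RABGEF1P1 (chr7:66530305-66592407) held 21 regions over 32.1% of its length, among them the region of 1699 bp with the highest −log10 q-value, 792, and a fold enrichment of 183. All 4 other lists overlapped that region. EP400P1 held a region of 695 and SUZ12P1, LRP5L and SMG1P2 held 27, 16 and 28 regions over 24.4%, 32.1% and 19.4% of their lengths. LRP5L held 11 H3.3 and 19 H4K16ac peaks beside 1 peak of each H2AZ antibody. The class was taken as RefSeq labels it, and it includes ORAI1 (6 regions, strongest 204). Whether each gene so labelled lacks a protein product was not checked. Pseudogenes derive from copies of other genes. How alike these copies are was not measured, and the sources used here do not give how reads aligning to several places were treated, so the copy to which these peaks belong is uncertain.

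As a group, the 353 regions in transcribed pseudogenes were overlapped by H2AZ at 25.5% (CST, 21 to 30.4) and 31.4% (Abcam, 26.6 to 36.6), by H3.3 at 30.3% (25.6 to 35.4) and by H4K16ac at 21% (16.8 to 25.6). The 898 regions in long non-coding RNA genes were at 27.6%, 30.5%, 36% and 23.9%. The intervals overlapped for every list. Strong regions with none of the 4 other lists were also found here, in RPL32P3 (135), SLC7A5P2 (116) and RABGEF1P1 (114).

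The regions lay at a median of 10197 bp from the nearest protein-coding gene, with 17256 bp for those inside non-coding genes and 4933 bp for those outside all genes. Of the regions under 10 kb away, 48.7% were upstream of that gene, 32.2% downstream, and the strand of the gene was not listed for 19.2%. H3K79me2 peaks were joined into a chain where gaps were at most 5 kb. In all, 799 regions (39.6%, 37.4 to 41.7) stood in a chain that reached a protein-coding gene or its flank, 31% of those inside non-coding genes and 53% of those outside all genes. The name "outside protein-coding genes" therefore includes many peaks that adjoin H3K79me2 over such a gene.

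Regions in chains that reached a protein-coding gene carried less H2AZ. H2AZ CST overlapped 20.4% (17.7 to 23.4) of them and 34.5% (31.8 to 37.2) of the 1221 others, and H4K16ac 22.4% (19.6 to 25.5) and 31.9% (29.3 to 34.6). H3.3 was at 41.9% (38.5 to 45.4) and 39.4% (36.6 to 42.2). By distance, H2AZ CST overlapped 24.4% of regions from 1 to 2 kb from a protein-coding gene, 36.7% from 10 to 50 kb and 17.8% beyond 50 kb. H3.3 was at 46.2%, 42.4% and 20.3% in those classes. Of the 433 regions beyond 50 kb, 363 lay inside non-coding genes.

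H2AZ shares were also set side by side for regions upstream and downstream of a protein-coding gene under 10 kb away. Among regions outside all genes, H2AZ CST overlapped 32% (26 to 38.5) of the 225 upstream and 21.7% (16.2 to 28) of the 203 downstream regions, and H2AZ Abcam 33.8% (27.6 to 40.4) and 20.2% (14.9 to 26.4). The intervals were apart for H2AZ Abcam only. H3.3 was at 50.7% and 50.2%, and H4K16ac at 29.8% and 36%. Among regions inside non-coding genes the H2AZ values were in the opposite order. H2AZ CST overlapped 23.8% (18.8 to 29.4) of the 265 upstream and 34.7% (26.3 to 43.9) of the 121 downstream regions, and H2AZ Abcam 26.4% (21.2 to 32.2) and 37.2% (28.6 to 46.4), with overlapping intervals.

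The strongest regions outside all genes lay close to protein-coding genes in several cases. The first, chr9:137126119-137130942, was 4824 bp wide with a −log10 q-value of 676 and lay 7812 bp upstream of DPP7, and all 4 other lists overlapped it. The second, chr17:81389893-81394183, had a value of 507 and lay 1273 bp upstream of BAHCC1. It held 5 H3.3 peaks, 1 H2AZ Abcam peak and neither H2AZ CST nor H4K16ac. The next 3 lay upstream of PRR14 (396), RSPH10B2 (308) and PTMA (307), and all 4 other lists overlapped each. Beyond 50 kb from any protein-coding gene the strongest was chrX:3815102-3816628 at 271, also with all 4 lists.

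The 783 regions outside all genes were also joined among themselves at gaps of at most 5 kb, with all other H3K79me2 peaks left out. A chain of this kind can therefore adjoin H3K79me2 peaks that were not counted in it. There were 444 such chains, of which 302 held 1 region and 21 held at least 5. The longest, chr11:1499312-1537828, held 22 regions over 38517 bp between MOB2 and DUSP8, on both sides of a small lncRNA gene, LOC124902607, that held 1 further region. The chain had 14 H3.3 and 18 H4K16ac peaks and no H2AZ peak of either antibody. The chain chr18:39784806-39800272 held 14 regions over 15467 bp and lay 32810 bp from the nearest annotated gene, MIR924HG. Its widest region, at the right end, was also its strongest (92), and the other 13 were between 3.1 and 14.6. Both H2AZ antibodies had 2 peaks over that right-hand region and none further left, and H4K16ac had none in the chain.

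The chain chr2:71277440-71295128 held 14 regions and no peak of the other lists. A further region of 739 bp, with a −log10 q-value of 221, ended 144 bp from its left end. It overlapped the end of the lncRNA gene LOC105374797, which lay 624 bp from the chain, and all 4 lists overlapped it. The chain chr6:154836095-154855197 began 1850 bp downstream of SCAF8 and held 12 regions with values up to 9.97 and no peak of any other list. Within its span lay a further H3K79me2 peak, with a value of 10, that was not outside all genes and was not counted. The chain chr7:128531098-128553124 held 14 regions, the strongest (149) at its left end, where the single H2AZ Abcam peak and the single H4K16ac peak of the chain lay.

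**Figure D5:**
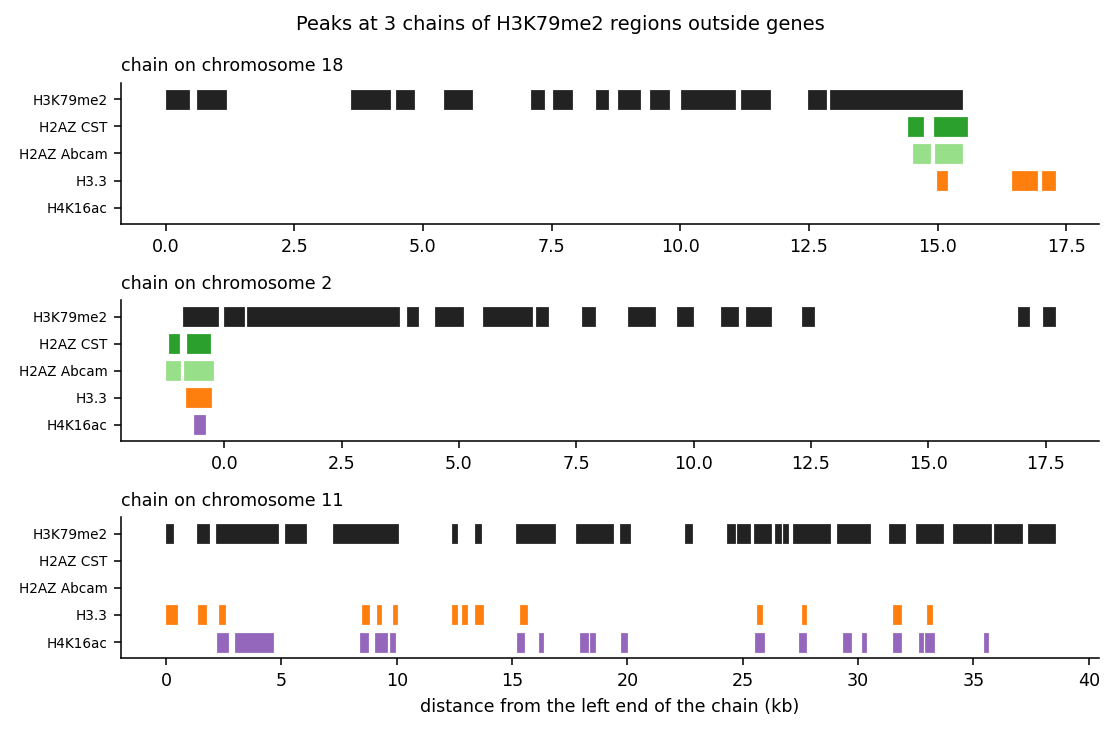
Peaks of the 5 lists at 3 chains of H3K79me2 regions outside all genes (x axis, distance from the left end of the chain in kb). Bars are peaks, with 1 row per list. H2AZ lies at the right end of the chromosome 18 chain and just before the left end of the chromosome 2 chain, and the chromosome 11 chain has 14 H3.3 and 18 H4K16ac peaks along it and no H2AZ.

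By chromosome, the regions were 7.63% (6.22 to 9.25) of H3K79me2 peaks under 10 kb on X and 6.99% (6.1 to 7.98) on chromosome 7, and between 2.01% and 5.34% on the others. On chromosome 7, 66 of 206 regions lay in transcribed pseudogenes, against 353 of the 2020 regions on all chromosomes. The counts were 52 of 144 on chromosome 16 and 34 of 80 on chromosome 22, so this was not particular to chromosome 7. On X, 72 of 95 lay inside non-coding genes, against 61.2% of the regions on all chromosomes, and on chromosome 13 it was 54 of 61.

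At the limits of the rule, the widest regions were 8955 bp in CRYBB2P1, 8221 bp in JPX and 8152 bp in LRP5L. Only 4 peaks outside protein-coding genes were at least 10 kb wide, in PVT1 (10556 bp), MIRLET7A1HG (11223 bp), DLEU2 (13990 bp) and XIST (18289 bp). The region nearest to a protein-coding gene lay 1004 bp from UBE2K (−log10 q-value 6.77), and the nearest excluded peak lay 995 bp from B4GAT1 (7.63).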

How the data were processed

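ChIP-seq peak lists of 5 libraries of HEK293T cells were used, 1 per antibody, and the input library was not analysed here. Per the submitters' processing notes the authors used bcl2fastq 2.17, Trimmomatic 0.33, Bowtie 1.1.2 and MACS2 2.1.0 with build hg38. Each deposited narrowPeak list gives a fold enrichment (a ratio), a −log10 p and a −log10 q-value per peak, the authors' values, which were used to describe and rank peaks within that list only. The deposited integer score was not used. The sources used here do not give read depths, thresholds, the use of the input or the treatment of multiply aligned reads.

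Peaks were intersected with the RefSeq GRCh38.p14 gene table in Python 3.11.15 (numpy 2.4.6, pandas 2.3.3, scipy 1.17.1), with at least 1 shared base. Strand and starts came from the RefSeq start-window table, which lists 15812 of 19974 protein-coding and 11383 of 39124 non-coding genes. Shares have exact Clopper-Pearson 95% intervals. Interval counting was tested on simulated data. No significance test was run. Genes named are the 10 with most bases and the 5 with highest q-value, up to 4 per list, the 5 strongest regions and 5 longest chains outside genes, and 3 each with all or none of the other lists. Others, such as MIR222HG, SNHG16, TSIX, IGL, the microRNAs and the start windows shown, were chosen after their values were seen. The regions and gene lists were chosen with earlier results of these data known.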

Additional observations from a re-analysis of the deposited data

Results flagged for a closer look

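On sequences other than chromosomes 1 to 22 and X the H3K79me2 list held 5 peaks, which no comparison above uses.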

How the results depend on the processing

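With protein-coding genes not extended, 3327 regions remained in the set, 49.9% of them inside a non-coding gene, with 43.2% overlapped by H2AZ CST, 45.4% by H2AZ Abcam, 51.4% by H3.3 and 35.5% by H4K16ac. With an extension of 5 kb there were 1293 regions, 69.9% of them inside a non-coding gene, and H3.3 was at 35.3%. H3K79me2 peaks with a −log10 q-value of at least 5 gave 32.8%, 35.9%, 44.7% and 31.4% for the lists in the same order. Requiring 50% of the region to be covered gave 21%, 25%, 30.6% and 18.4%, against 10.2%, 11.9%, 18.8% and 13.2% in the other peaks. Other lists limited to a −log10 q-value of at least 5 gave 25.5% for H4K16ac. Counting long non-coding RNA genes alone, 44.5% of the regions lay inside one. Leaving out regions in chains that reach a protein-coding gene, chosen after seeing the data, gave 34.5% for H2AZ CST, 37.8% for H2AZ Abcam and 31.9% for H4K16ac. These 22 of 41 values lay outside the main interval or, for counts, beyond 1.5 times the main count, and the other 19 did not. Apart from what each setting adds or removes by construction, the cause was not tested. Of 56 values for bases covered in named genes, under settings also chosen after seeing the data, 13 moved by over 1.5 times, all lower. With the 2 kb width limit JPX fell to 9496 bp, RABGEF1P1 to 11513, DLEU1 to 11480, LRP5L to 9612, LINC01619 to 3505, EP400P1 to 3886, NEAT1 to 3344, and LINC02983 and LINC03073 to 0. With the 5 kb extension LINC01619 fell to 6497 bp, EP400P1 to 3886, and LINC02983 and LINC03073 to 0. No paired analysis was possible because each antibody has 1 library and no test was run. Read depth limits which weak peaks were called, and the sources used here do not state it.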
